A study of Mus musculus with 6 samples.

Results

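The core circadian clock genes of mouse liver were examined as a group of 10 members: Arntl (also called Bmal1), Clock, Npas2, Per1, Per2, Per3, Cry1, Nr1d1, Nr1d2 and Dbp. They were listed by name and not by a threshold on these arrays, although earlier results of the data were known, and found on the arrays through the RefSeq accession of each non-control probe. All 10 had a probe, 11 probes in all, among 37074 genes on the array, and 9 of them were bright enough to be tested. Liver RNA of L1-Tg mice was compared with that of WT littermates on 3 arrays per group. L1-Tg mice are hemizygous for human NPC1L1, a cholesterol importer, placed under the liver-active APOE promoter in the line B6;D2-Tg(APOE-NPC1L1)20Lqyu/J. It had been crossed back to C57BL/6J for at least 8 generations. All mice were males, were fed a control-fat diet (CFD) and lived under 12 h of light and 12 h of darkness, with lights on at 7:00. The study used mice of 6 to 12 weeks, and the ages behind single arrays are not given in the sources used here, nor is the time of day at which the livers were taken. The level of the human transgene was not analysed here.

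Each array held Cy3-labeled cRNA from a pool of 2 or 3 mice, and p-values measure only how such pools differ from each other. All 6 arrays came from 1 slide and 1 scan. Row 1 of the slide held WT and row 2 held L1-Tg, so slide row and genotype cannot be told apart. Between 53.1% and 59.2% of probes were well above background on an array, and no spot was saturated. The 6 hepatocyte markers gave a summed level between 12.0 and 12.3 log2 units in every pool, a sum carried by Alb and Serpina1a. Single markers varied more. Apoa1 differed by -0.49 between L1-Tg and WT (limma adjusted p = 0.533). Its groups did not overlap, as for 8.63% of tested genes in that direction. Cyp3a11 ran from 8.11 in WT replicate 1 to 9.34 in WT replicate 3. Values below are the log2 of the probe's processed signal minus the 75th percentile of its array, called the scaled log2 signal, and they compare pools for 1 gene and not genes with each other. Over the 22358 genes tested the median log2 difference between L1-Tg and WT mice was -0.03, and 29 genes passed limma at an adjusted p under 0.05.

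The clock is a feedback loop of transcription that runs in nearly every cell. ARNTL pairs with CLOCK, or with NPAS2, and drives genes that carry E-boxes, among them the Per, Cry, Nr1d and Dbp genes, whose products then act back on the loop. PER and CRY proteins block the activator pair, while NR1D1 and NR1D2 (REV-ERB alpha and beta) repress Arntl. In mouse liver Arntl, Npas2 and Clock peak around the end of the night, and Nr1d1, Dbp, Nr1d2 and Per3 peak in the second part of the day. Livers taken near these opposite times therefore differ in opposite directions in the sets of genes, which need not hold between other hours. Many metabolic genes of the liver follow this rhythm, and feeding time, body temperature and glucocorticoids act on its phase.

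The DNA just before the start sites was read for the textbook clock motifs. Motifs elsewhere in a gene, within introns or past the start, were not searched, so a window without a match does not mean a gene without the motif. RefSeq (GRCm38.p6) gave a promoter for 9 of the 10 members, all but Per2, and the 250 bases before each listed start were searched on both strands. The motifs were the E-box CACGTG, the E-prime box CACGTT, the D-box TTATGTAA that DBP binds, the ROR element TAGGTCA that NR1D proteins bind, and the cAMP response element TGACGTCA. Of 32851 promoter windows of this length 6.02% held the E-box, 3.85% the E-prime box, 0.819% the D-box, 2.23% the ROR element and 1.55% the cAMP response element. The 4 members with a match are shown 5′ to 3′ in the direction of the gene, with the motif in capitals, because these letters are the motifs that the regulators named here are known to bind. AACGTG is the E-prime box read on the other strand.
Per1, chr11:69098699-69098948, plus strand: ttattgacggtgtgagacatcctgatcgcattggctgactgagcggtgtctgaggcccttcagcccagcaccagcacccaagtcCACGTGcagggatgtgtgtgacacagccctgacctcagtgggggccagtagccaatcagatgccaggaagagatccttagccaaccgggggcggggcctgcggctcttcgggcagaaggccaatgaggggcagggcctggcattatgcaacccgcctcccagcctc
Per3, chr4:151044666-151044915, minus strand: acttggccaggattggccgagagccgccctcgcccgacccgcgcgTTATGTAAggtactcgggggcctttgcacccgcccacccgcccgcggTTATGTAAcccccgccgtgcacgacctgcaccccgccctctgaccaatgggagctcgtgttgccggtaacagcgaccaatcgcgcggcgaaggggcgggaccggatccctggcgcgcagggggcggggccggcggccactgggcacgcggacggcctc
Cry1, chr10:85185055-85185304, minus strand: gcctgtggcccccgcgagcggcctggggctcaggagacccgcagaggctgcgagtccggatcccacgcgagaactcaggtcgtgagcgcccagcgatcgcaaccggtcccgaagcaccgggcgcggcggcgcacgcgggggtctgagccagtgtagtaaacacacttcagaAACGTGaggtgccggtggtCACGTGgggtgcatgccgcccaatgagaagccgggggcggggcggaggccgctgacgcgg
Nr1d1, chr11:98775378-98775627, minus strand: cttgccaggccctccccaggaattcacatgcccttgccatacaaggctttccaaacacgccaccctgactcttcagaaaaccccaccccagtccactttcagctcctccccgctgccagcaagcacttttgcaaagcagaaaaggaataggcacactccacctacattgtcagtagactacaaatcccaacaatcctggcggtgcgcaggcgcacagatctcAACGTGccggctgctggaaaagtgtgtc

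The Per1 window held an E-box whose first base lay at -166 from the start, and a second annotated Per1 start held no match. The Per3 window held 2 copies of the D-box, at -205 and -158. Cry1 had an E-box at -60 and an E-prime box at -79, and Nr1d1 had an E-prime box at -28. No member window held the ROR element or the cAMP response element in these exact letters. A match is a description of the letters and not evidence of binding.

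None of the 9 tested clock genes passed limma at an adjusted p under 0.05, and 0.13% of all tested genes did. Per1 was the member whose groups did not overlap, 1 of 9, where 15.9% of all tested genes had groups that did not overlap, and it was the member with an unadjusted p under 0.05, which 8.85% of tested genes had. For 8 of the 9 genes the 95% interval of the difference held 0. The difference was above 0 for 4 members and below 0 for 5, which became 5 and 4 with array-median scaling or quantile normalization, and 56.9% of tested genes had a difference below 0. The median difference over the 9 members was -0.07. The absolute difference exceeded the pooled SD of the pools for 2 members, Per1 and Nr1d2.

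**Figure D1:**
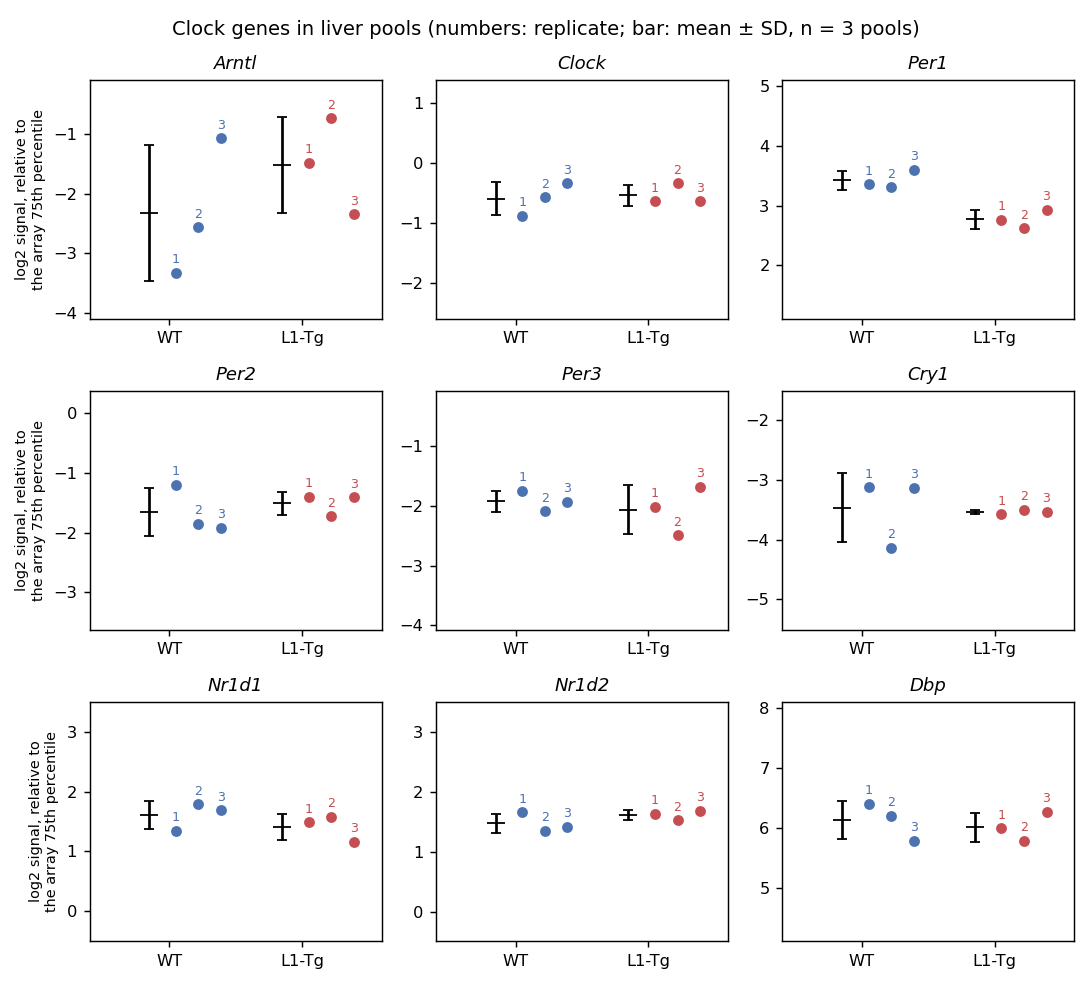
Scaled log2 signal (y axis, each panel spanning the same number of log2 units) of the 9 tested clock genes in the WT and L1-Tg pools, with the replicate number at each point and the mean ± SD (n = 3 pools) as a bar. The Per1 pools separate by genotype, from 2.62 to 2.93 in L1-Tg and 3.31 to 3.60 in WT, and the Arntl pools spread widely within each genotype.

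Arntl, the activator that the loop cannot run without, differed more between pools of the same genotype than between the genotypes. Its scaled log2 signal was -1.49, -0.74 and -2.35 in L1-Tg replicates 1, 2 and 3, and -3.32, -2.56 and -1.07 in WT replicates 1, 2 and 3. The intensities before scaling were 134.9, 177.8 and 66.1 in the L1-Tg pools and 31.6, 53.1 and 161.3 in the WT pools. The groups overlapped, with L1-Tg replicate 2 and WT replicate 3 highest, WT replicate 1 lowest, and a 5.99-fold range over the 6 pools. The mean was -1.52 ± 0.81 (SD, n = 3) in L1-Tg and -2.32 ± 1.14 (SD, n = 3) in WT, a log2 difference of 0.80 (SE 0.65, 95% interval -0.76 to 2.35, limma adjusted p = 0.697). That difference was 0.29 without WT replicate 1, 0.40 without L1-Tg replicate 2, 1.42 without WT replicate 3 and 1.21 without L1-Tg replicate 3. It was 0.41 after a normexp background correction.

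The pooled SD of Arntl was 0.99 log2 units, larger than that of 98.7% of tested genes, whose median was 0.17, and 277 genes had a larger one. Under normexp it was 0.56. The other 8 members had pooled SDs from 0.13 for Nr1d2 to 0.41 for Cry1, and 7 of the 9 lay above the median of all genes.

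Clock, the partner of Arntl, gave -0.64, -0.34 and -0.64 in the L1-Tg pools and -0.88, -0.57 and -0.34 in the WT pools. Its highest pools were WT replicate 3 and L1-Tg replicate 2 and its lowest was WT replicate 1, the same 3 pools as at the ends of the Arntl order, over a 1.46-fold range. The log2 difference was 0.06 (SE 0.17, 95% interval -0.35 to 0.47, limma adjusted p = 0.920), and it was -0.084 without WT replicate 1 and 0.19 without WT replicate 3. Npas2, which can take the place of Clock, was well above background on 0 of 6 arrays, with intensities between 3.3 and 8.2, so that no fold was calculated for it.

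Per1, a repressor whose transcription also responds directly to glucocorticoid and cAMP signals, was the member that separated the genotypes. Its scaled log2 signal was 2.76, 2.62 and 2.93 in the L1-Tg pools and 3.35, 3.31 and 3.60 in the WT pools. Every L1-Tg pool lay below every WT pool. The means were 2.77 ± 0.16 (SD, n = 3) in L1-Tg and 3.42 ± 0.16 (SD, n = 3) in WT, so that the L1-Tg level was 0.637 of the WT level. The log2 difference was -0.65 (SE 0.13, 95% interval -0.97 to -0.34), with an unadjusted p of 0.002033 and an adjusted p of 0.295 in limma over all genes, which is not past the threshold. Its difference index, the difference of the group means over the sum of the SDs by the study's methods, was -1.99 when calculated on linear signals divided by the array's 75th percentile, and it was the member past the modulus of 0.7, which 30.2% of all genes on the array and 26.4% of those tested passed. Under every alternative processing the difference stayed between -0.73 and -0.54.

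The other Per genes gave overlapping groups. Per2, a partner of Per1 in the repressor complex, gave -1.40, -1.73 and -1.41 in the L1-Tg pools and -1.20, -1.85 and -1.92 in the WT pools, a log2 difference of 0.14 (SE 0.22, 95% interval -0.38 to 0.67, limma adjusted p = 0.835). WT replicate 1 was the highest pool and the other WT pools were the lowest, so that the difference was 0.37 without WT replicate 1 and 0.012 without WT replicate 3. Per3, the member with the 2 D-boxes shown above, gave -2.01, -2.49 and -1.69 in the L1-Tg pools and -1.75, -2.09 and -1.93 in the WT pools, a log2 difference of -0.14 (SE 0.22, 95% interval -0.66 to 0.38, limma adjusted p = 0.841). Its highest and lowest pools were both L1-Tg pools, and the difference was 0.075 without L1-Tg replicate 2 and -0.33 without L1-Tg replicate 3. Cry1, which closes the loop with the PER proteins, gave -3.57, -3.50 and -3.54 in the L1-Tg pools and -3.13, -4.13 and -3.13 in the WT pools, a log2 difference of -0.07 (SE 0.28, 95% interval -0.74 to 0.60, limma adjusted p = 0.943). WT replicate 2, the lowest pool, was not well above background for Cry1, and all L1-Tg values lay inside the WT range. The direction of the Cry1 difference turned under several alternatives, to 0.049 with quantile normalization and 0.036 with array-median scaling, and it was -0.41 without WT replicate 2.

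The REV-ERB genes, which repress Arntl, gave opposite small differences. Nr1d1 gave 1.49, 1.57 and 1.16 in the L1-Tg pools and 1.35, 1.79 and 1.68 in the WT pools, a log2 difference of -0.20 (SE 0.17, 95% interval -0.60 to 0.20, limma adjusted p = 0.707). Nr1d2 gave 1.63, 1.53 and 1.69 in the L1-Tg pools and 1.66, 1.36 and 1.42 in the WT pools, a log2 difference of 0.14 (SE 0.11, 95% interval -0.14 to 0.42, limma adjusted p = 0.697). The groups overlapped for both genes. With 1 pool left out the Nr1d1 difference ran from -0.33 (without WT replicate 1) to -0.075 (without L1-Tg replicate 3) and the Nr1d2 difference from 0.081 (without WT replicate 2) to 0.23 (without WT replicate 1). The order of the 6 pools was exactly turned between them: WT replicates 2 and 3 were the highest for Nr1d1 and the lowest for Nr1d2, and L1-Tg replicate 3 was the lowest for Nr1d1 and the highest for Nr1d2.

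Dbp, a transcription factor that carries the rhythm to metabolic genes, gave 5.99, 5.78 and 6.26 in the L1-Tg pools and 6.40, 6.20 and 5.78 in the WT pools, over a 1.54-fold range. The lowest pools were L1-Tg replicate 2 and WT replicate 3, the highest was WT replicate 1, and the groups overlapped. The log2 difference was -0.12 (SE 0.20, 95% interval -0.60 to 0.37, limma adjusted p = 0.857), and it was 0.021 without WT replicate 1 and -0.29 without WT replicate 3. A second Dbp probe had the same highest pool and the same lowest pools and differed by -0.14.

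Whether the pools differed in clock phase was judged from the genes that peak at opposite times. For each pool the deviations of Arntl and Clock from their 6-pool means were averaged, and the mean deviation of Nr1d1, Nr1d2, Dbp and Per3 was subtracted, which removes any scaling of the array. The contrast was 0.19, 0.89 and -0.32 in the L1-Tg pools and -0.99, -0.35 and 0.59 in the WT pools. L1-Tg replicate 2 and WT replicate 3 lay at 1 end and WT replicate 1 at the other, and both genotypes had pools on each side of 0. The range within a genotype was 1.21 in L1-Tg and 1.57 in WT, wider than the difference of 0.51 between the means of 0.25 ± 0.61 (SD, n = 3) in L1-Tg and -0.25 ± 0.79 (SD, n = 3) in WT. The contrast had been planned with Npas2, which gave a difference of 0.23 and the same order of pools. The difference was 0.14 without WT replicate 1, 0.19 without L1-Tg replicate 2, 0.79 without L1-Tg replicate 3 and 0.92 without WT replicate 3. Without WT replicate 3 the groups no longer overlapped, with L1-Tg replicate 3 at -0.32 and WT replicate 2 at -0.35 as the nearest pools.

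Arntl gave most of the size of this contrast. With Clock alone in place of Arntl and Clock it was -0.07, 0.41 and -0.14 in the L1-Tg pools and -0.45, -0.04 and 0.28 in the WT pools, with the same pools at the ends and a difference of 0.14. Arntl set against Dbp alone gave 0.52, 1.47 and -0.62 in the L1-Tg pools and -1.73, -0.77 and 1.14 in the WT pools. The difference was 0.91, and the groups again overlapped. Nr1d1 did not share the direction of the other 3 opposing genes in all pools, and it opposed all of them in 3 pools. Its deviation was -0.34 in L1-Tg replicate 3, where Dbp was at 0.19, Nr1d2 at 0.14 and Per3 at 0.31. It was -0.16 in WT replicate 1, where the others were at 0.33, 0.11 and 0.24, and 0.07 in L1-Tg replicate 2, where they were at -0.29, -0.02 and -0.50. Leaving Nr1d1 out gave a difference of 0.46. The pools therefore spread along the opposite-phase contrast within each genotype, and the genotypes overlapped at 3 pools a group. The contrast has no test and is not an estimate of clock time.

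**Figure D2:**
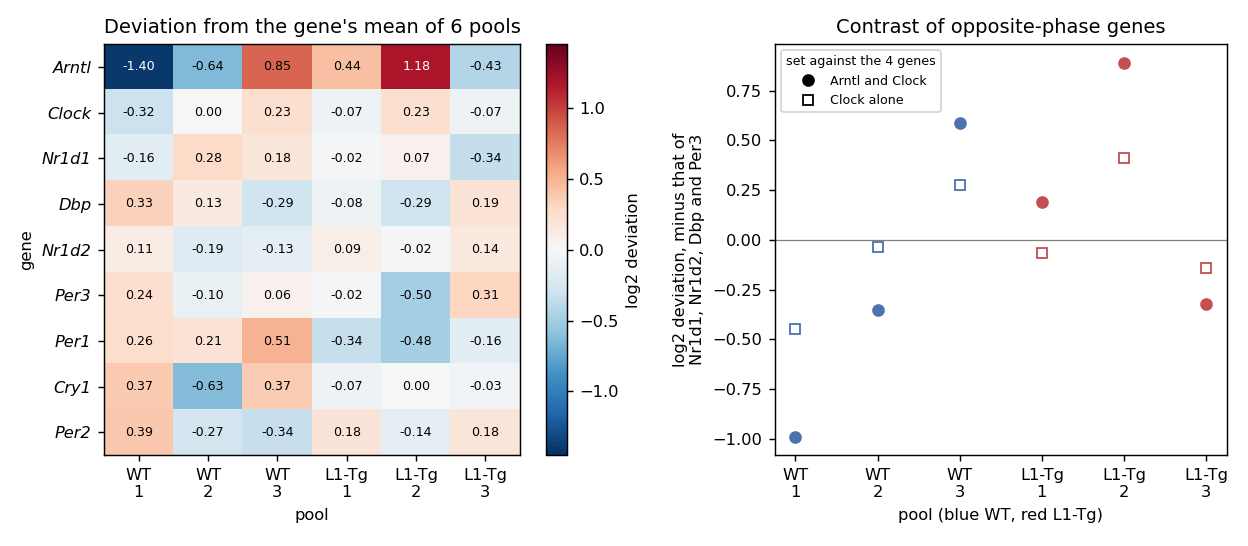
Left, log2 deviation of each tested clock gene from its mean over the 6 pools (colour and printed value). Right, the contrast per pool (y axis, log2 units), with Arntl and Clock (circles) or Clock alone (open squares) set against Nr1d1, Nr1d2, Dbp and Per3. L1-Tg replicate 2 (0.89) and WT replicate 3 (0.59) lie highest and WT replicate 1 (-0.99) lowest, so each genotype spans 0.

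The genes whose profile over the 6 pools lay closest to Arntl were found among 13307 candidates, each well above background on the 6 arrays, by the root-mean-square distance between profiles centred on their means. Among the nearest were S100a9 (0.30 log2 units), S100a8 (0.35), Cd79b (0.35) and Fcmr (0.39), against a root-mean-square deviation of 0.90 for Arntl itself. S100a8 and S100a9 encode neutrophil proteins, Cd79b a part of the B-cell receptor and Fcmr the IgM receptor of lymphocytes. S100a9 gave 1.50, 2.33 and 1.28 in the L1-Tg pools and 0.21, 0.58 and 1.69 in the WT pools, with L1-Tg replicate 2 and WT replicate 3 highest and WT replicate 1 lowest, as for Arntl.

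Over whole marker lists, the summed scaled log2 signal of the 3 tested neutrophil markers of 4 was 2.13, 2.94 and 2.04 in the L1-Tg pools and 1.17, 1.39 and 2.31 in the WT pools. S100a9 and S100a8, already picked above for their nearness to Arntl, carry this sum, so its order adds no separate evidence. Camp, the remaining tested marker, gave -0.52, 0.01 and -0.23 in the L1-Tg pools and -0.44, -0.57 and -0.34 in the WT pools, lowest in WT replicate 2. The summed signal of all 6 Kupffer cell markers, the macrophages of the liver, was 7.00, 6.72 and 6.90 in the L1-Tg pools and 5.92, 6.31 and 6.96 in the WT pools. WT replicate 1 was lowest in both sums, and none of these markers had an unadjusted p under 0.05. The 6 T and B lymphocyte markers summed to 6.34 to 6.61 in the L1-Tg pools and 6.49 to 7.81 in the WT pools, a sum carried by Cd4. Of the 4 pancreas markers only Cela1 was tested, and it gave 0.18 in L1-Tg replicate 2 and between -4.58 and -3.11 in the other pools. In RNA of a whole liver, fewer cells of a type and less RNA per cell cannot be told apart. The part of these cells in the Arntl values was not tested.

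Among the nearest profiles to Dbp were Gatm (0.03 log2 units), Bcam (0.07), Olfr424 (0.07) and Zbtb20 (0.07), against a root-mean-square deviation of 0.24 for Dbp itself. Gatm encodes an enzyme of creatine synthesis. It gave -0.88, -1.15 and -0.64 in the L1-Tg pools and -0.47, -0.70 and -1.07 in the WT pools, with WT replicate 1 highest and L1-Tg replicate 2 and WT replicate 3 lowest, as for Dbp. With 6 points among so many genes, such near matches are descriptions.

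**Figure D3:**
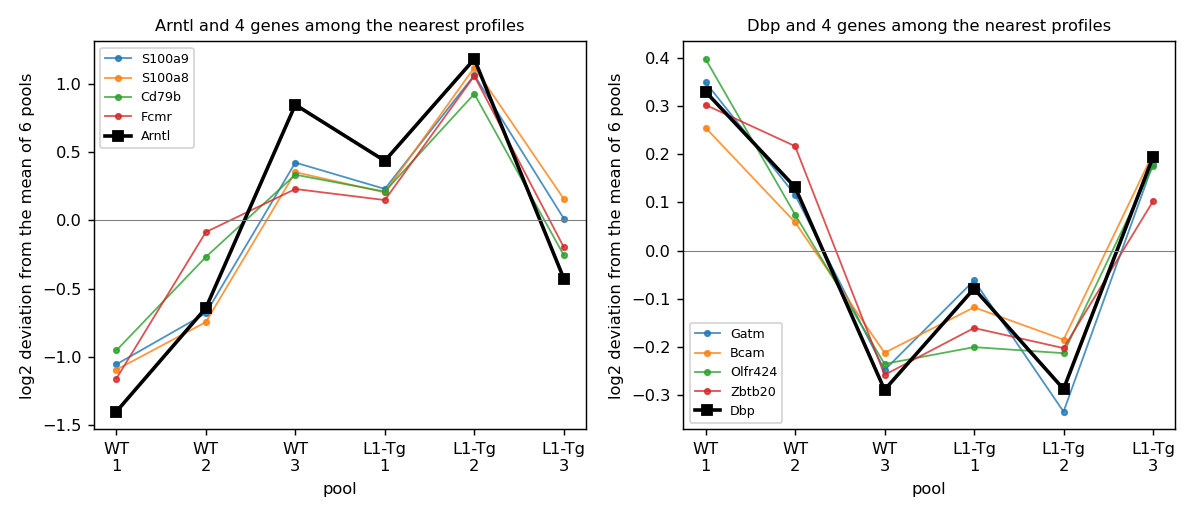
Log2 deviation from the mean of the 6 pools (y axis) for Arntl (left) and Dbp (right) as black squares, and for 4 genes among the nearest profiles to each (colours). Arntl and its neighbours run from WT replicate 1 at the bottom (-1.40 for Arntl) to L1-Tg replicate 2 at the top (1.18), and Dbp runs from 0.33 in WT replicate 1 to -0.29 in L1-Tg replicate 2.

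Other regulators of the clock were taken from a list of 24 genes, of which 22 were tested and none passed the adjusted threshold. The list held 7 genes above 0 and 15 below 0 with a median log2 difference of -0.01, against -0.03 over all genes. The count below 0 was 8 with array-median scaling, which moved the median of all genes to 0.08, and 9 without scaling. An unadjusted p under 0.05 was reached by 5 of these 22, all with a lower L1-Tg mean, where 4.32% of the tested genes reached it in that direction, and by 0 with a higher mean, where 4.54% did. The groups did not overlap for those 5 in the lower direction, where 8.63% of tested genes did so, and for Fbxw11, an E3 ligase subunit that marks PER proteins for decay, in the higher direction (7.27%).

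Ciart, a repressor of the ARNTL and CLOCK pair, gave -0.42, -0.69 and -0.34 in the L1-Tg pools and 0.28, -0.12 and 0.33 in the WT pools, a log2 difference of -0.65 (SE 0.16, limma adjusted p = 0.410). Cry2, the paralog of Cry1, gave 3.64, 3.52 and 3.52 in the L1-Tg pools and 3.87, 3.90 and 3.84 in the WT pools, a log2 difference of -0.31 (SE 0.09, limma adjusted p = 0.458). For both genes every L1-Tg pool lay below every WT pool, as for Per1. Hlf and Tef, which are relatives of Dbp that bind the D-box, differed by -0.30 (SE 0.10) and -0.29 (SE 0.12), with limma adjusted p of 0.519 and 0.561. Rora, the activator that competes with the REV-ERB proteins, differed by -0.25 (SE 0.09, limma adjusted p = 0.546). The sign of these 5 differences was the same under every alternative run, with Tef at -0.18 without WT replicate 1. All 5 were smaller with array-median scaling, at -0.54 for Ciart, -0.20 for Cry2, -0.19 for Hlf, -0.18 for Tef and -0.14 for Rora. The count of regulators at an unadjusted p under 0.05 was not repeated under that scaling.

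**Figure D4:**
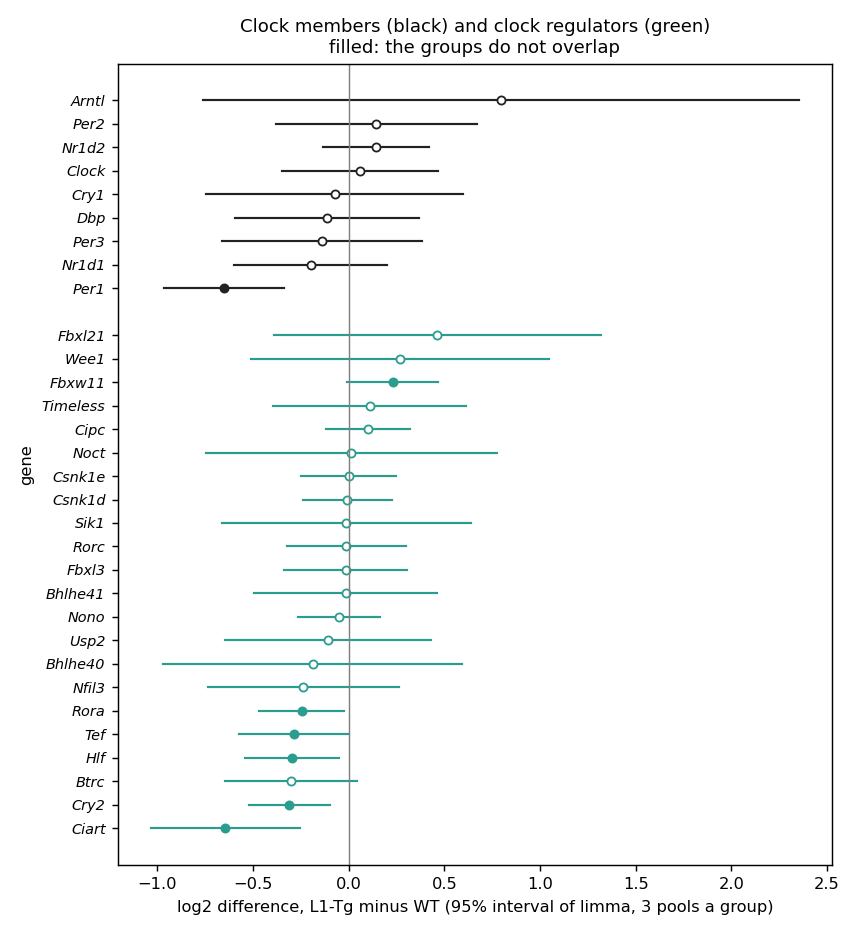
Log2 difference of L1-Tg minus WT (x axis, with the 95% interval from limma) for the 9 tested clock genes (black) and the 22 tested clock regulators (green), with filled points where the 3 pools of each group do not overlap. Per1 at -0.65 and Ciart at -0.65 lie farthest below 0 with filled points, and the interval of Arntl, from -0.76 to 2.35, is the widest.

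Of 18 rhythmic genes of liver metabolism, 17 were tested and none passed, with 6 above 0, 11 below 0 (9 with array-median scaling) and a median of -0.14. Por, the electron donor of cytochrome P450 enzymes, differed by -0.42 (SE 0.14, limma adjusted p = 0.501), and Gys2, the liver glycogen synthase, by -0.39 (SE 0.16, limma adjusted p = 0.559). Cyp7a1, the rate-limiting enzyme of bile acid synthesis, differed by -0.45 (SE 0.22, limma adjusted p = 0.590) and Mthfd1l, a mitochondrial folate enzyme, by 0.35 (SE 0.29, limma adjusted p = 0.710). Cyp7a1 was at -0.28 without WT replicate 3 and -0.70 without WT replicate 1, and Mthfd1l was at 0.0055 without WT replicate 2.

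Insig2, a repressor of sterol synthesis and a known REV-ERB target, was chosen after its values were seen. It gave 4.31, 4.49 and 3.44 in the L1-Tg pools and 3.26, 4.41 and 4.46 in the WT pools. L1-Tg replicate 3 and WT replicate 1, the lowest pools of Insig2, were the lowest of Nr1d1 but the highest of Nr1d2, the other REV-ERB gene. REV-ERB proteins are repressors, and whether they acted on Insig2 here was not tested. Rgs16, chosen in the same way, encodes a regulator of G-protein signaling and was highest in those same pools, at 3.54 and 3.58, and at most 2.85 in the others. The genotypes overlapped for both genes.

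Cues that set the phase were read from shorter lists. Of 8 temperature-responsive genes 7 were tested, all 7 differed above 0 and none passed, with a median of 0.15. Of all tested genes 56.9% differed below 0. The list mixes heat-induced genes with the cold-induced Cirbp and Rbm3, so the shared sign is not 1 direction of temperature. The count below 0 was 1 with the probes of a gene averaged, and at most 1 with 1 pool left out. Hspa1a, the stress-induced HSP70, differed by 0.99 (SE 0.24, limma adjusted p = 0.389) and Hsp90aa1, an inducible HSP90, by 0.42 (SE 0.12, limma adjusted p = 0.473). The groups did not overlap for either, as for 7.27% of tested genes in the higher direction. The chaperone genes Dnajb1 and Hsph1 differed by 0.33 (SE 0.14) and 0.15 (SE 0.15), and Hsph1 was at 0.048 without L1-Tg replicate 2 and 0.28 without L1-Tg replicate 1. Hspa1a was at 0.52 under normexp. The cold-induced Rbm3 differed by 0.09 (SE 0.17), which turned to -0.31 when all of its probes were averaged.

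All 8 glucocorticoid-responsive genes were tested and none passed, with 2 above 0, 6 below 0 (4 with array-median scaling) and a median of -0.18. By pool, the list's median deviation was -0.16, 0.21 and -0.36 in L1-Tg and -0.07, -0.11 and 0.41 in WT. Its highest pools, WT replicate 3 and L1-Tg replicate 2, were also those of Arntl. Its lowest was L1-Tg replicate 3, where Arntl was lowest in WT replicate 1. A link between the list and the phase contrast was not tested. Zbtb16, a transcription factor, differed by -0.42 (SE 0.14, limma adjusted p = 0.499) and Pck1, the gluconeogenic enzyme, by -0.46 (SE 0.16, limma adjusted p = 0.519). The groups did not overlap for either gene, as for 8.63% of tested genes in the lower direction. Fkbp5, a co-chaperone of the glucocorticoid receptor, differed by -0.25 (SE 0.14), Sgk1, a kinase, by 0.49 (SE 0.40) and Tat, the tyrosine aminotransferase, by -0.36 (SE 0.34). Sgk1 ran from 0.18 without L1-Tg replicate 2 to 0.84 without WT replicate 3, Tat from -0.63 without L1-Tg replicate 2 to -0.052 without WT replicate 3, and Fkbp5 from -0.38 without WT replicate 2 to -0.16 without WT replicate 3. These values stand beside the lower Per1 values in the L1-Tg pools, and the part of temperature, glucocorticoids or sampling time in the Per1 values was not tested.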

How the data were processed

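Liver RNA of 3 WT and 3 L1-Tg pools was measured on Agilent 1-color arrays. The authors processed the scans with Feature Extraction (version 10.10.1.1 per the file headers) and deposited the processed signal of each spot, a linear intensity after background subtraction, without scaling between arrays, with marks of 0 or 1 for spots well above background. They also deposited a table of intensities, which equals the processed signal times 1 factor per array. The genotype label set the groups. Control spots were left out, non-uniform spots were treated as missing and repeated probes were averaged. A symbol was found for 27235 of the 28685 probes named by a RefSeq accession. Each log2 signal was reduced by the array's 75th percentile. A gene was its brightest probe and was tested where every array of 1 group or more marked it well above background.

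R 4.3.3 and limma 3.58.1 gave the differences and their 95% intervals, by lmFit with eBayes. Two-sided p-values were adjusted by Benjamini-Hochberg over 22358 genes, with a threshold of 0.05. The members and lists were chosen with earlier results of these data known. All members were named, and from each list the 5 genes with the smallest p, and for Arntl and Dbp the 5 nearest profiles. Some genes that this rule takes are not reported here. Fbxw11, Insig2, Rgs16 and the cell markers given with values were chosen after their values were seen. Npas2 was taken out of the planned contrast because it was well above background on no array. An exact permutation test of 3 against 3 pools cannot go below 0.10 and was not used. On simulated data of 22359 genes with the spread of this comparison, 68% of genes changed by 1 log2 unit and 96% of those changed by 2 were called, with 10 false genes among 174 calls. These rates are for genes drawn at random and not for the clock genes. The clock members had a median pooled SD of 0.28, against 0.17 for all genes. The number of arrays limits the precision. The alternatives were other scalings, a normexp correction (offset 50), the deposited table, other filters and probe rules, non-uniform spots kept, a replicate block, each pool left out in turn, limma without moderation and the difference index.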

Additional observations from a re-analysis of the deposited data

How the results depend on the processing

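No clock gene passed the adjusted threshold under any of the alternatives in which limma was run. Under the study's difference index, a modulus over 0.7 was passed by 1 of the 10 clock genes, Per1. It was passed by 9 of 24 clock regulators, 3 of 17 rhythmic outputs, 4 of 7 temperature genes and 3 of 8 glucocorticoid genes. Under limma 0 passed in each. The index counts take every listed gene with a probe, tested or not. Of all genes on the array 30.2% passed the index, and of those tested 26.4% did. The number of clock genes whose groups do not overlap was between 1 and 4 when 1 pool was left out, at 4 without WT replicate 1 and 2 without WT replicate 2 or WT replicate 3, where fewer samples make separation easier. The adjusted p of Per1 lay between 0.177 and 0.701.

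Small differences turned their sign. Clock was at -0.0013 under normexp and between -0.084 and 0.19 with 1 pool left out. Cry1 was at 0.049 with quantile normalization, 0.036 with array-median scaling, 0.017 under normexp and between -0.41 and 0.096 with 1 pool left out. Per3 lay between -0.33 and 0.075, and Dbp between -0.29 and 0.021, with 1 pool left out. Rbm3 was at -0.31 with its probes averaged and between -0.026 and 0.25 with 1 pool left out. The phase contrast kept its sign, between 0.14 and 0.92 with 1 pool left out and at 0.24 under normexp. It was 0.23 with Npas2, as planned. Leaving out Npas2 was chosen after seeing the data, as was leaving out Arntl (0.14), Dbp (0.49) or Nr1d1 (0.46).

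The labels do not say that replicate numbers pair pools, and same-numbered pools had correlations of deviations of -0.16, 0.11 and 0.02, so the numbers were not used for pairing. With the replicate block Per1 differed by -0.65 at an adjusted p of 0.329, and 11 genes of the array passed in place of 29. Without the filter on dim probes the count was 10 over all genes then tested, 9 of them among the 22358 genes of the main test. It was 9 to 19 with 1 pool left out and 0 without moderation of the variances, where 29 passed in the main setting. Signal over background limits Npas2 and Cry1. Arntl was well above background on all 6 arrays but dim in WT replicates 1 and 2 (intensities 31.6 and 53.1). Its difference was 0.41 under normexp, so the size of its spread also depends on the background correction.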
